A study of Mus musculus with 5 samples.

Results

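The 48 genes described here encode the machinery of the cell cycle and its regulators. They were taken by symbol from a list of cyclins, kinases, replication factors, mitotic proteins and proliferation markers, without a rule on their values. Earlier results of these data were known when the list was chosen. All 48 were found among the 55487 gene identifiers counted in each library, and all 48 passed the filter on low counts that left 13525 genes to test. RNA was measured by SMART-seq, a low-input method that reads along the whole transcript, in CD4 single positive (CD4 SP) thymocytes of 3 wild type (WT) mice and 2 *Tet2/3* DKO mice, with 1 library per mouse. The DKO genotype is Tet2-/-Tet3flx/flxCD4cre. *Tet2* is deleted in the germ line, and therefore in every cell of the mouse, whereas *Tet3* is floxed and removed by a Cre recombinase driven by the *Cd4* promoter, which is active from the double positive stage of the thymus onwards. WT mice carry neither the Cre nor the altered alleles. Strain C57BL/6J is given for both groups, and the mice were 21 to 30 days old. Live cells were first depleted of those with high CD24 (HSA) and then sorted as CD4+, TCRβ+, CD8- and negative for the CD1d tetramer that marks iNKT cells. TET2 and TET3 are dioxygenases that oxidize 5-methylcytosine in DNA.

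The cell cycle is driven by cyclin-dependent kinases (CDKs). D-type cyclins with CDK4 or CDK6 start the release of E2F transcription factors from the retinoblastoma family in G1, cyclin E with CDK2 carries the cell into S phase, and cyclins A and B with CDK1 carry it through G2 and mitosis (together G2/M). CDK inhibitors of the Cip/Kip family (*Cdkn1a*, *Cdkn1b*) and the INK4 family (*Cdkn2c*, *Cdkn2d*) oppose these kinases. In the thymus most division takes place before the CD4 SP stage, and mature CD4 SP cells are mainly quiescent, and transcripts of S phase and of mitosis are known to come mostly from the cells that are cycling.

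The 5 libraries held between 17607089 and 27267031 reads on genes, and values below are CPM, the read count of a gene scaled to the size of its library, with edgeR's TMM factors. *Tet3* averaged 47.3 ± 4.57 CPM (SD, n = 3) in WT and 16.6 ± 4.83 CPM (n = 2) in *Tet2/3* DKO libraries, without overlap. Counts over the whole of *Tet2*, which include exons outside a deletion and therefore do not check the label, were 52.4, 54.2 and 57.8 CPM in WT and 91.5 and 58.6 CPM in DKO. The sex given for 2 libraries did not match their transcripts. *Xist*, the RNA that coats the silenced X chromosome in female cells, had 744 reads in the library labelled DKO replicate 1 and at most 2 in any other, while 4 Y-linked genes (*Ddx3y*, *Kdm5d*, *Eif2s3y*, *Uty*) together had 7 reads there and 5101 to 7041 elsewhere. That library is labelled male. WT replicate 1 is labelled female and had 6821 Y-linked reads and no *Xist* read. The methods of the study give all these mice as male, so DKO replicate 1 went against both its label and the methods. Whether libraries or labels were exchanged was not tested. DKO replicate 1 also had the highest share of reads on no annotated feature, 5.70% against 3.51% to 3.72%. For this reason results are given with both DKO libraries and with each alone.

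Of the 48 genes, 3 passed the threshold of an adjusted p-value of 0.01 in edgeR, by the quasi-likelihood test with adjustment of Benjamini-Hochberg over all genes tested. *Cdkn1a* was higher in *Tet2/3* DKO cells, and *E2f2* and *Ccnd3* were lower. That is 6.25% of the 48, where 3.92% of all genes tested passed (2.42% higher and 1.50% lower). The median log2 fold change (DKO minus WT) of the 48 genes was -0.12, against 0.01 for all genes tested, with 10 positive and 38 negative. At an adjusted p-value of 0.05, 4 of the 48 passed, *Stmn1* being added, and 8.67% of all genes did. At an unadjusted p under 0.05 there were 11 of the 48 and 23.0% of all genes, the share against which such counts below are to be read. DESeq2 called 5 of the 48 at 0.01, adding *Stmn1* and *Top2a*, and 6.78% of the genes it tested. The count of 3 depended on single libraries: without WT replicate 1 or without WT replicate 2 none of the 48 passed in edgeR, without WT replicate 3 *E2f2* alone passed, without DKO replicate 1 the count was 9, and without DKO replicate 2 it was 22. In RNA from a sorted population, fewer cycling cells and less of these transcripts in each cycling cell cannot be told apart.

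**Figure D1:**
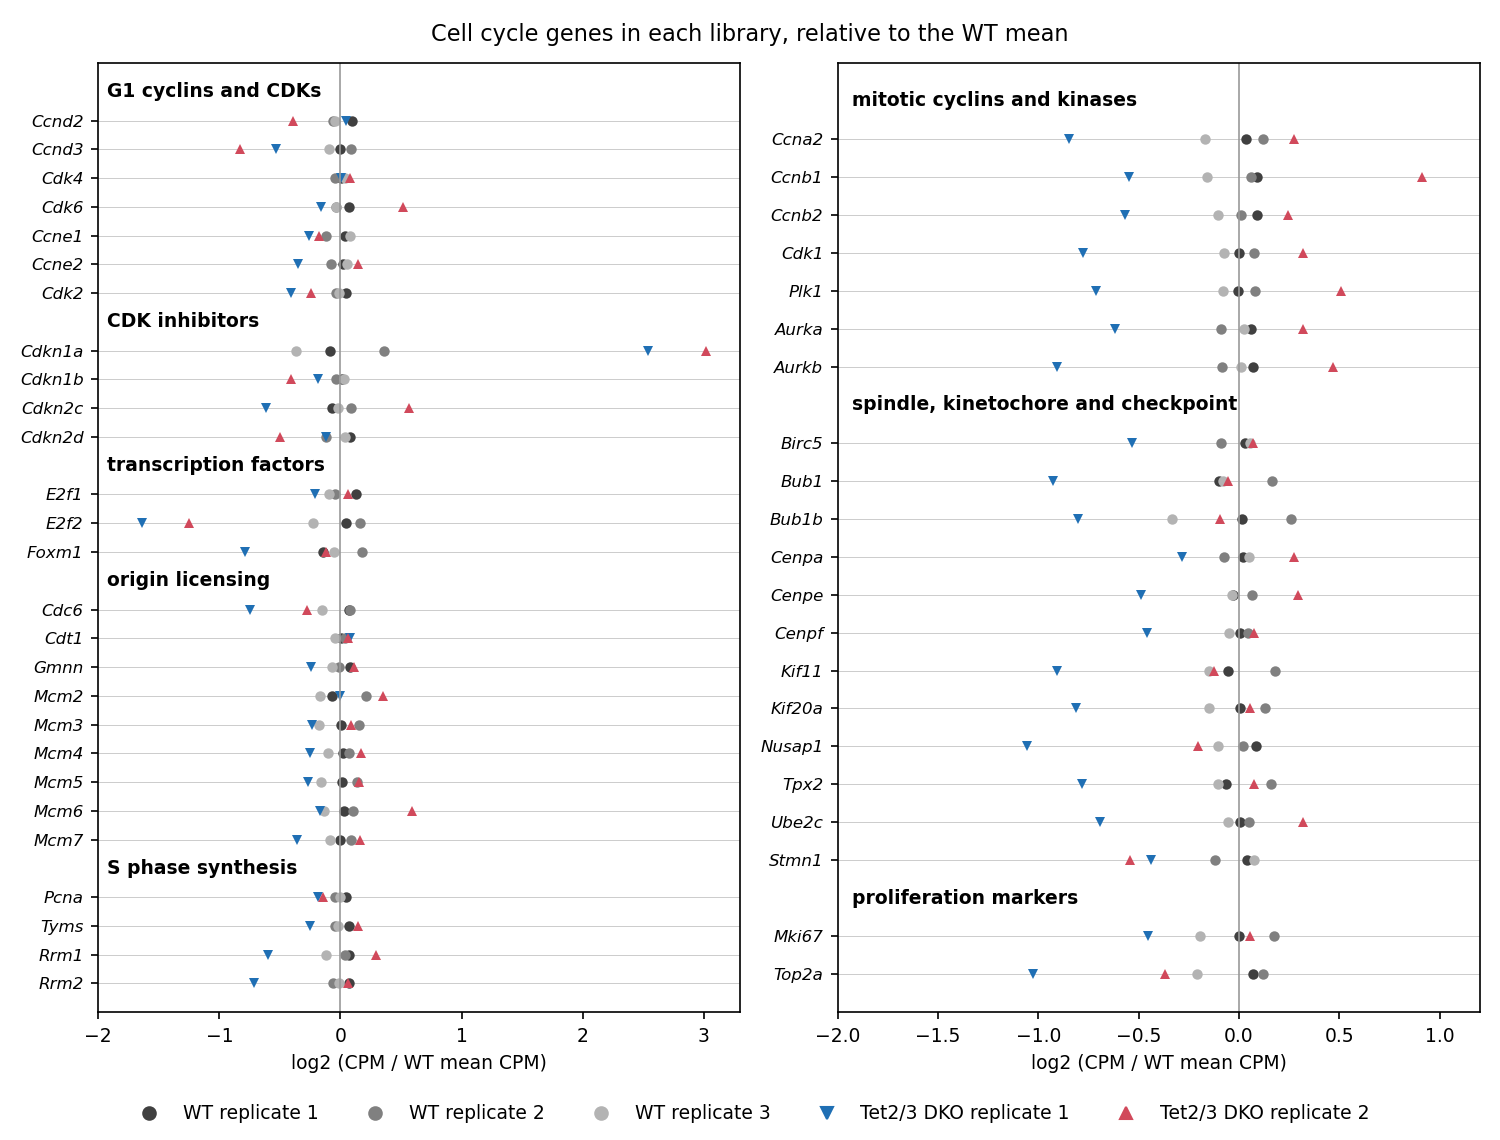
Level of each of the 48 genes in each library as log2 of its CPM over the mean of the 3 WT libraries, grouped by role; the horizontal scales of the left and right panels differ. Grey circles are WT libraries, blue triangles pointing down are DKO replicate 1 and red triangles pointing up are DKO replicate 2. *E2f2*, *Ccnd3* and *Stmn1* lay below and *Cdkn1a* above WT in both DKO libraries, whereas all 7 mitotic cyclins and kinases had DKO replicate 1 below and DKO replicate 2 above every WT library.

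Of the 7 G1 cyclins and CDKs, 1 fell. *Ccnd2*, encoding cyclin D2, was at 1661, 1487 and 1505 CPM in WT and 1598 and 1183 CPM in DKO. Its DKO libraries overlapped the WT range, and it did not pass the test (log2 fold change -0.16 ± 0.12 SE, adjusted p = 0.512). *Ccnd3*, encoding cyclin D3, which thymocytes need for their expansion at the pre-TCR stage, was at 491, 524 and 462 CPM in WT and 340 and 277 CPM in DKO. Both DKO libraries lay below the 3 WT libraries, and the gene fell by 0.67 ± 0.11 (SE) on the log2 scale (edgeR adjusted p = 0.00509, and 1.88e-07 to 0.0372 over the alternatives). *Cdk6*, a kinase partner of the D-type cyclins, was at 31.2, 29.0 and 29.0 CPM in WT. It was lower than these in DKO replicate 1, at 26.6 CPM, and higher in DKO replicate 2, at 42.5 CPM. *Ccnd3* lies on chromosome 17 of mm10 from 47505051 to 47599691, and 4.11% of its exon bases are shared with the antisense gene *Bysl*.

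Of the 4 CDK inhibitors, 1 rose and the other 3 did not pass. *Cdkn1a*, which encodes p21, a target of p53 that halts the cycle, had 16, 20 and 14 reads in the WT libraries and 80 and 95 in the DKO libraries. These correspond to 0.62, 0.84 and 0.51 CPM in WT and 3.81 and 5.32 CPM in DKO, and the groups did not overlap. The log2 fold change was 2.79 ± 0.35 (SE), or 6.91-fold (adjusted p = 0.00169, and 1.88e-07 to 0.0199 over the alternatives). Per kilobase of exon its WT level, 0.185 ± 0.048 CPM (SD, n = 3), was nevertheless the lowest of the 48 genes. *Cdkn2d*, encoding p19 of the INK4 family, was at 549, 480 and 533 CPM in WT and 479 and 368 CPM in DKO. Its log2 fold change was -0.30 ± 0.12 (SE, adjusted p = 0.174). *Cdkn1b*, encoding p27, was at 60.8, 58.8 and 61.5 CPM in WT and 53.2 and 45.5 CPM in DKO (adjusted p = 0.147). For both genes the DKO libraries lay below all WT libraries without passing the test. *Cdkn2c*, encoding p18, split the DKO libraries: they had 20.4 and 46.3 CPM, on either side of the 29.8, 33.2 and 30.9 CPM of WT.

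*Cdkn1a* lies on chromosome 17 of mm10 from 29090976 to 29100727. Its promoter is printed because the p53 element in it is the best known regulatory sequence of the gene. It is the RefSeq sequence of GRCm38.p6, 120 bases before the start of transcription and 20 from it, read 5′ to 3′ along the gene. Here and in the windows printed below, the start farthest upstream was taken where a gene has several. The place of the element is thus given relative to that start only. Capitals mark a match to the p53 element, searched as the consensus of that name without a spacer, 20 bases long, with 1 mismatch allowed.
Cdkn1a, chr17:29090859-29090998, plus strand: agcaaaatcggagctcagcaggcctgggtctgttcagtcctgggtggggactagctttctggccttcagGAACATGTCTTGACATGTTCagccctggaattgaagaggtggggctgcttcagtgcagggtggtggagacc
Of all 32851 promoter windows of 300 bases in the RefSeq table (250 before and 50 from the start), 0.0883% held such a match, and none of the windows of S phase or G2/M genes did. A match is a description of the letters and not of binding.

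Among the 3 transcription factors *E2f2* fell. It encodes an E2F family member that acts on genes of S phase entry and that in T cells is also known to restrain proliferation. *E2f2* was at 49.4, 53.6 and 40.9 CPM in WT and at 15.4 and 20.1 CPM in DKO, with a wide gap between the groups. It fell by 1.44 ± 0.17 (SE) on the log2 scale and was 2.71-fold higher in WT (edgeR adjusted p = 0.00114, and 4.23e-13 to 0.0142 over the alternatives). Each DKO library alone showed the fall, with log2 fold changes of -1.65 for replicate 1 and -1.25 for replicate 2. The gene lies on chromosome 4 of mm10 from 136172394 to 136196057 and shares no exon base with another gene. *E2f1* and *Foxm1*, the other 2 factors, did not pass. For both, DKO replicate 1 was below every WT library (*E2f1* at 23.9 CPM against 26.0 to 30.2 CPM, *Foxm1* at 4.29 CPM against 6.69 to 8.34 CPM) and DKO replicate 2 within their range.

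**Figure D2:**
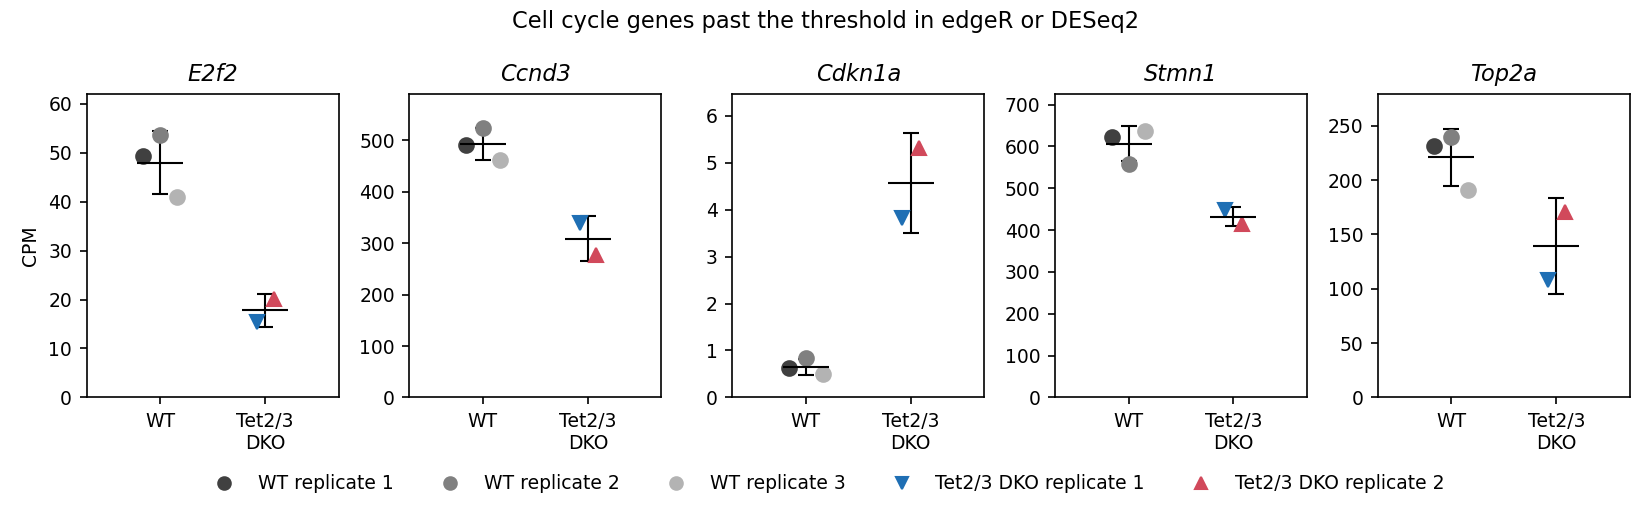
CPM of the 5 genes past an adjusted p-value of 0.01 in edgeR (*E2f2*, *Ccnd3*, *Cdkn1a*) or only in DESeq2 (*Stmn1*, *Top2a*). Points are libraries, the long horizontal line is the group mean and the bars are ± 1 SD (n = 3 WT, n = 2 DKO). In none of the 5 genes did the groups overlap, and the WT means were 48.0, 492, 0.657, 606 and 221 CPM in that order against 17.8, 309, 4.56, 431 and 139 CPM in DKO.

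None of the 9 licensing genes passed in edgeR or DESeq2, with 1 at an unadjusted p under 0.05, and their log2 fold changes ran from -0.50 to 0.26. *Mcm6*, a subunit of the MCM2-7 helicase, was at 359, 379 and 321 CPM in WT, 314 CPM in DKO replicate 1 and 533 CPM in DKO replicate 2. *Mcm5*, of the same helicase, was at 253, 275 and 224 CPM in WT and at 208 and 279 CPM in DKO. In both genes one DKO library was below and the other above every WT library. *Cdc6*, which loads the helicase onto origins, was at 53.3, 53.6 and 45.7 CPM in WT and 30.4 and 42.0 CPM in DKO, lower in both DKO libraries but not past the threshold (log2 fold change -0.50 ± 0.15 SE, adjusted p = 0.0846). The 4 genes of DNA synthesis gave no call in either tool and none at an unadjusted p under 0.05. *Pcna*, the sliding clamp of DNA polymerase, was at 338, 317 and 326 CPM in WT and 288 and 296 CPM in DKO (log2 fold change -0.16 ± 0.08 SE, adjusted p = 0.269). *Rrm2*, the small subunit of ribonucleotide reductase, was at 296, 271 and 280 CPM in WT, 172 CPM in DKO replicate 1 and 295 CPM in DKO replicate 2. Only the first of the DKO libraries was outside the WT range.

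Of the genes of mitosis, none of the 7 cyclins and kinases passed in edgeR or DESeq2, and none had an unadjusted p under 0.05. *Cdk1*, the mitotic kinase, was at 88.2, 92.9 and 83.9 CPM in WT and at 51.6 and 110 CPM in DKO. *Ccnb1*, encoding its partner cyclin B1, was at 73.3, 71.6 and 61.5 CPM in WT and at 47.0 and 130 CPM in DKO. *Ccnb2*, encoding cyclin B2, was at 161, 153 and 141 CPM in WT and at 102 and 180 CPM in DKO. In all 3 genes DKO replicate 1 was the lowest of the 5 libraries and DKO replicate 2 the highest, and the log2 fold changes between the groups were -0.13 ± 0.25 (SE), 0.35 ± 0.32 and -0.11 ± 0.20 in that order. The ratio of DKO replicate 2 to DKO replicate 1 was 2.14 for *Cdk1*, 2.76 for *Ccnb1* and 1.76 for *Ccnb2*.

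Spindle, kinetochore and checkpoint genes were 12, of which none passed in edgeR, 3 had an unadjusted p under 0.05 and 1 passed in DESeq2. *Stmn1*, encoding the microtubule-destabilizing protein stathmin, was at 623, 558 and 637 CPM in WT and 448 and 415 CPM in DKO. It lay just outside the threshold in edgeR, with a log2 fold change of -0.49 ± 0.09 (SE) and an adjusted p of 0.0104, and inside it in DESeq2 (adjusted p = 1.4e-05, with 1.4e-05 to 0.0664 over the alternatives). *Nusap1*, a spindle protein, was at 117, 111 and 102 CPM in WT and 52.8 and 95.6 CPM in DKO (log2 fold change -0.57 ± 0.21 SE, adjusted p = 0.13). In both proliferation markers DKO replicate 1 was the lowest of the 5 libraries. *Mki67*, encoding the Ki-67 antigen of cycling cells, was at 85.4, 96.5 and 74.6 CPM in WT, 62.5 CPM in DKO replicate 1 and 88.8 CPM in DKO replicate 2. *Top2a*, encoding topoisomerase II alpha, was at 232, 239 and 191 CPM in WT and 108 and 171 CPM in DKO. Both DKO libraries were below WT for *Top2a*, which passed in DESeq2 (adjusted p = 0.00515) and not in edgeR (log2 fold change -0.66 ± 0.18 SE, adjusted p = 0.054, and 7.42e-05 to 0.197 over the alternatives).

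Compared per kilobase of exon, so that genes can be set against each other, the highest WT levels were those of *Cdkn2d* (331 ± 22.8 CPM per kb, SD, n = 3) and *Stmn1* (315 ± 21.9), which did not differ beyond their SDs. *Ccnd2* followed with 165 ± 10.1 CPM per kb and *Pcna* was at 136 ± 4.34. *Cdk6* was at 2.12 ± 0.09 CPM per kb. Among the 48 genes 16 share exon bases with another gene, at most 29.3% of them (*Kif20a*, named for this alone). Reads on such bases were left out of the counts, and without strand an antisense partner cannot be told apart.

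The 2 *Tet2/3* DKO libraries differed from each other in the genes of S phase and of G2/M, and the genes of G2/M did so more than those of S phase. The 48 genes hold 17 of S phase (licensing and synthesis genes, cyclins E, *E2f1* and *E2f2*) and 21 of G2/M. Summed over the 21 G2/M genes, WT libraries had 1861, 1903 and 1715 CPM. DKO replicate 1 had 1129 CPM, 38.2% below the WT mean, and DKO replicate 2 had 2038 CPM, 11.6% above it. Summed over the 17 S phase genes, WT libraries had 2760, 2809 and 2536 CPM, whereas DKO replicate 1 had 2176 CPM (19.4% below the WT mean) and DKO replicate 2 had 3030 CPM (12.2% above). For both sums the DKO libraries fell outside the WT range on opposite sides. The ratio of the G2/M sum to the S phase sum was 0.674, 0.677 and 0.676 in WT, 0.673 in DKO replicate 2 and 0.519 in DKO replicate 1. For the S phase and G2/M genes DKO replicate 1 was thus below the other 4 libraries. The 10 genes in neither phase went another way. Their sum was 3736 to 4034 CPM in WT, 3528 CPM in DKO replicate 1 and 2977 CPM in DKO replicate 2, the lowest. With 2 DKO libraries these are values of libraries, and no test was made on the sums.

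**Figure D3:**
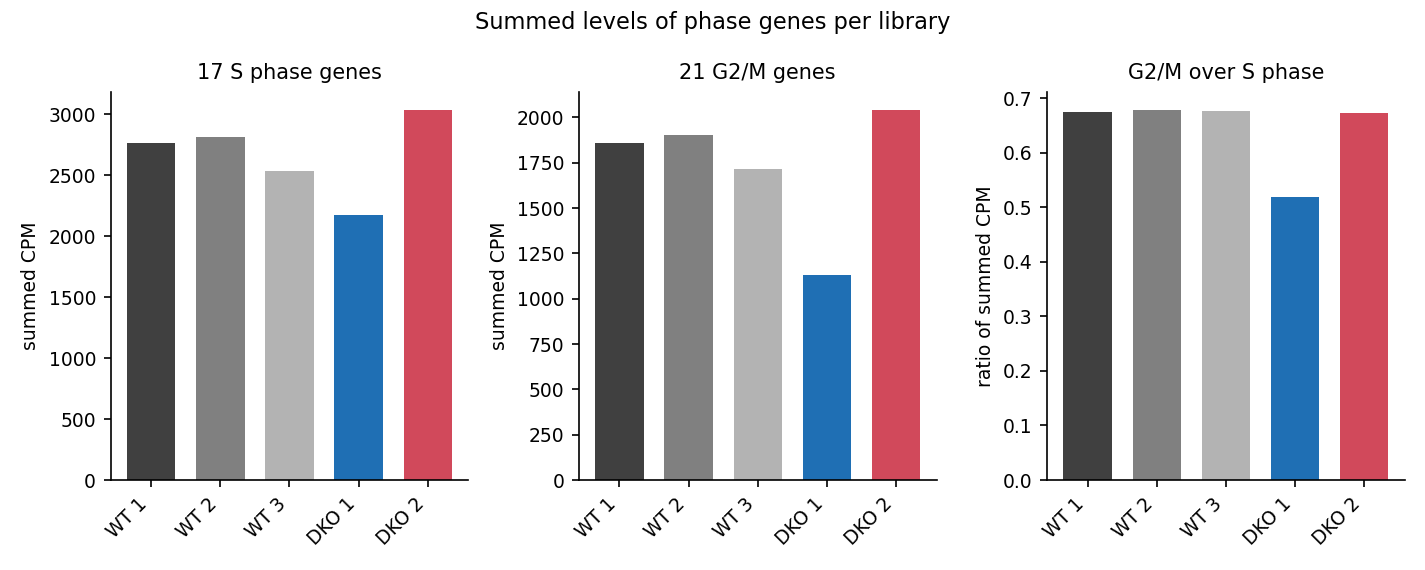
Summed CPM of the 17 S phase genes and the 21 G2/M genes, and the ratio of the G2/M sum to the S phase sum, in each of the 5 libraries (WT in grey, DKO replicate 1 in blue, DKO replicate 2 in red; bars start at 0). The ratio was 0.519 in DKO replicate 1, while the other libraries had 0.673 to 0.677.

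Gene by gene, DKO replicate 1 was below every WT library in 21 of 21 G2/M genes and 15 of 17 S phase genes, and in 34.8% of all genes tested. DKO replicate 2 was above every WT library in 12 of the 21 G2/M genes and 10 of the 17 S phase genes, against 33.8% of all genes. Both held at once, DKO replicate 1 below and DKO replicate 2 above WT, in 12 G2/M genes (57.1%) and 8 S phase genes (47.1%), against 6.50% of all genes. All 7 mitotic cyclins and kinases were among them. DKO replicate 1 was lower than DKO replicate 2 in 21 of 21 G2/M genes, 16 of 17 S phase genes and 49.7% of all genes. The median log2 ratio of DKO replicate 2 to DKO replicate 1 was 0.86 over the G2/M genes, 0.39 over the S phase genes and 0.00 over all genes tested. By contrast only 13 of the 48 genes had both DKO libraries on the same side of WT without overlap, 2 above and 11 below. Of all genes tested, 39.1% had groups that did not overlap, 19.6% with DKO above and 19.5% with DKO below.

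Fits with 1 DKO library against the 3 WT libraries, in which the lone library is assumed to vary as WT libraries do, compare those libraries and not the genotypes. DKO replicate 1 alone gave 22 of the 48 genes past the threshold, *Cdkn1a* higher and 21 lower, of which 15 were G2/M genes, where 3.22% of all genes tested were called lower and 4.77% higher. The median log2 fold change was -0.79 over the G2/M genes and -0.27 over the S phase genes. DKO replicate 2 alone gave 9. *Cdkn1a*, *Ccnb1*, *Cdkn2c*, *Mcm6* and *Plk1* (a mitotic kinase, named after its values were seen) were higher, and *Ccnd3*, *E2f2*, *Stmn1* and *Cdkn2d* were lower, where 6.57% of all genes were called higher and 2.56% lower. Here the median log2 fold change was 0.07 over the G2/M genes and 0.11 over the S phase genes.

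Genes of the same phases outside the 48 were measured in the same way. In a list of 37 other G2/M genes, DKO replicate 1 was below every WT library in 33 (89.2%), DKO replicate 2 was above in 21 (56.8%), and both held in 18 (48.6%). In a list of 31 other S phase genes the counts were 20 (64.5%), 7 (22.6%) and 4 (12.9%), and DKO replicate 2 was below every WT library in 8 of them. The shares over all genes tested were 34.8%, 33.8% and 6.50%. In summed CPM, DKO replicate 1 was 12.7% below the WT mean for the other G2/M genes and 7.01% below it for the other S phase genes, and DKO replicate 2 was 8.68% and 3.96% above it. *Smc4*, the most abundant of the 37, was higher in DKO, and without it the G2/M sum was 23.9% below the WT mean in DKO replicate 1 and 5.66% above it in DKO replicate 2. With DKO replicate 1 alone the median log2 fold change was -0.57 over the other G2/M genes and -0.23 over the other S phase genes. The ratio of the G2/M sum to the S phase sum of these lists was 1.98, 2.01 and 2.04 in WT, 1.88 in DKO replicate 1 and 2.10 in DKO replicate 2, outside the WT values on opposite sides. None of these genes passed in the comparison of genotypes by edgeR, with 6 G2/M genes and 1 S phase gene at an unadjusted p under 0.05. DESeq2 called 1 of them, *Smc4* of the condensin complex, which is also expressed outside mitosis, at 837, 830 and 879 CPM in WT and 1116 and 1025 CPM in DKO (adjusted p = 0.00174, and 0.0325 in edgeR).

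**Figure D4:**
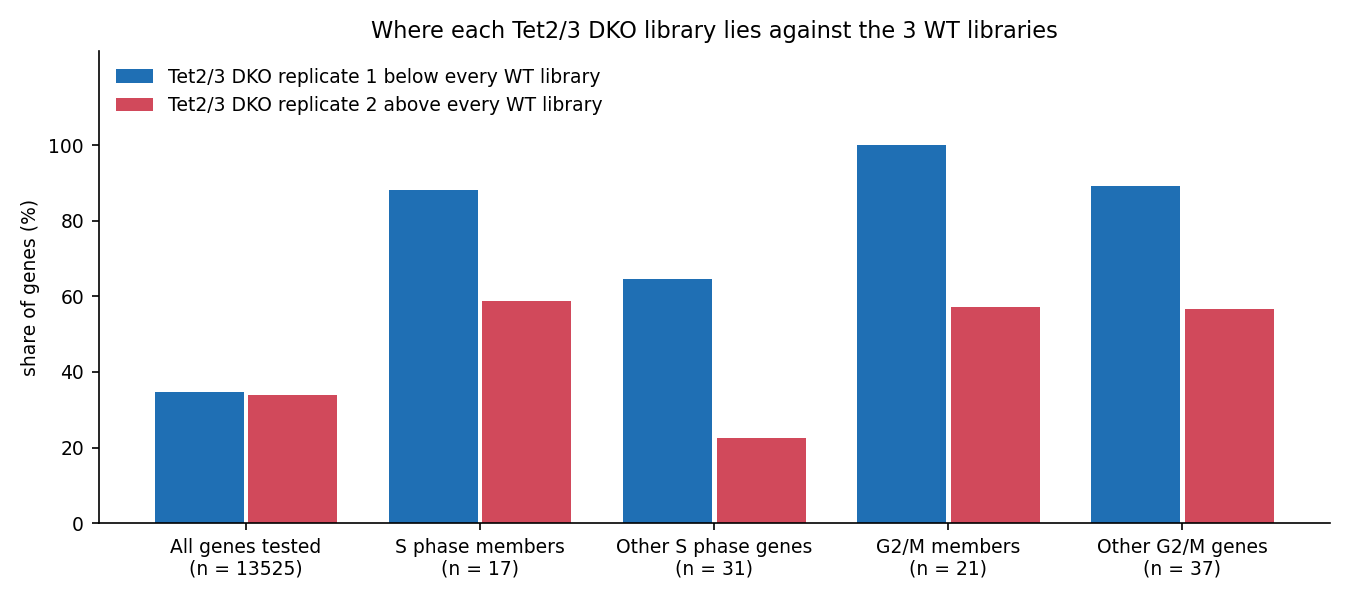
Share of genes for which DKO replicate 1 lay below every WT library (blue) and for which DKO replicate 2 lay above every WT library (red), in %, for all genes tested, the 17 S phase and 21 G2/M genes of the 48 (labelled members) and the lists of other S phase and G2/M genes. Among all genes the shares were 34.8% and 33.8%, among the 21 G2/M genes 100% and 57.1%.

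Promoters of the 48 genes, where a window was available, were searched for elements known to time the transcription of cell cycle genes. The CHR element (cell cycle genes homology region) is the site of the MuvB complexes that repress G2/M genes in quiescence and activate them in mitosis, CCAAT boxes are bound by NF-Y and often stand upstream of a CHR, and E2F sites are typical of S phase genes. RefSeq windows of GRCm38.p6 were found for 38 of the 48 genes (43 windows, since 5 genes have several starts). The letters searched, on both strands, were TTTGAA and TTCGAA for the CHR, CCAAT for the CCAAT box, and TTTCCCGC, TTTGCCGC, TTTGGCGC and TTTCGCGC for the E2F site. A CHR was present in 12 of 16 windows of G2/M genes (75%), 3 of 16 windows of S phase genes (18.8%) and 19.2% of all windows in the table. An E2F site was present in 1 of 16 (6.25%), 7 of 16 (43.8%) and 2.26%, and a CCAAT box in 87.5%, 68.8% and 37.4%, in the same order. A CHR and a CCAAT box occurred together in 12 of the 16 G2/M windows and in 7.52% of all windows. In 11 of the 12 G2/M genes with a CHR, one lay between 30 bases before and 40 bases after the start of transcription. The bounds of this interval follow the positions found, the outermost being -29 (*Ube2c*) and 40 (*Bub1b*). No share over all windows was taken for it, so the count only describes these genes.

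The following windows, 120 bases before the start and 20 from it, read 5′ to 3′ along the gene, show this arrangement in 5 G2/M genes and, for comparison, in the S phase gene *Mcm6*. Capitals mark the CHR, the CCAAT box (which reads ATTGG where it lies on the other strand) and, in *Mcm6* alone, the E2F sites, 2 of which overlap.
Cdk1, chr10:69352893-69353032, minus strand: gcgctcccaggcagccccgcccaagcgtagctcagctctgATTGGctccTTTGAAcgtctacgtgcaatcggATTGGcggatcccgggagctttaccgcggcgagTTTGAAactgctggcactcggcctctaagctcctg
Ccnb2, chr9:70421535-70421674, minus strand: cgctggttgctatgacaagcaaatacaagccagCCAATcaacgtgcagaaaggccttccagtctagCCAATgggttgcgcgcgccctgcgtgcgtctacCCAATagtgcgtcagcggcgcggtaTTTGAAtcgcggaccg
Ube2c, chr2:164769809-164769948, plus strand: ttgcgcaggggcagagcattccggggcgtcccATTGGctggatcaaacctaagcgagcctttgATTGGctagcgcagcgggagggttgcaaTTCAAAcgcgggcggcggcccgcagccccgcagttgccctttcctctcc
Kif11, chr19:37376262-37376401, plus strand: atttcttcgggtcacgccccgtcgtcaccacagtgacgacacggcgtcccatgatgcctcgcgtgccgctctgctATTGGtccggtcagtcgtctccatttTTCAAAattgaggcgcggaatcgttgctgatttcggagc
Top2a, chr11:99024170-99024309, minus strand: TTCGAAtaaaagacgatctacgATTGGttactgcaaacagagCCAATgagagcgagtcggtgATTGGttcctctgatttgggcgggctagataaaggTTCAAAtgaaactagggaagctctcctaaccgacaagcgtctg
Mcm6, chr1:128359686-128359825, minus strand: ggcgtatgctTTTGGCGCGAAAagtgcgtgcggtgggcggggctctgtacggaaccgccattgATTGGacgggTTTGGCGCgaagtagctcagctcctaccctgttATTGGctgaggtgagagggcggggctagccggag
In each of the 5 G2/M genes a CHR stands nearest to the start, downstream of at least 1 CCAAT box. All 5 had lower levels in DKO replicate 1 than in any WT library, as had all 21 G2/M genes, among them *Ccnb1*, whose window holds no CHR. *Mcm6* has no CHR in the window, and its DKO replicate 1 value was also below WT. A match describes the letters and says nothing of which factor was bound in these cells.

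**Figure D5:**
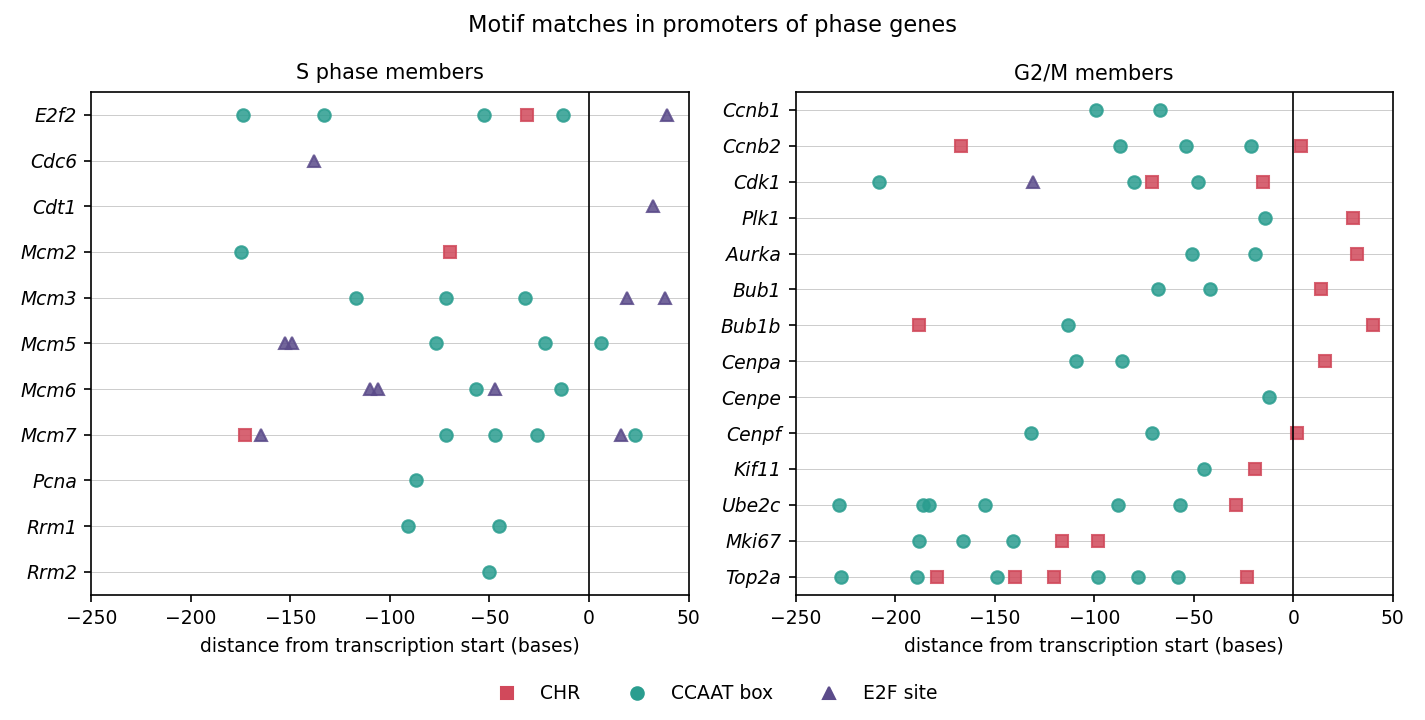
Position of CHR (red squares), CCAAT box (green circles) and E2F site (purple triangles) matches relative to the start of transcription, in bases, for S phase genes (left) and G2/M genes (right) with at least 1 match; matches of genes with several starts are drawn together, each relative to its own start. A CHR lay between 30 bases before and 40 bases after the start in 11 of the 12 G2/M genes that had one. The bounds of this interval follow the positions found. Some of these genes also had a match farther upstream. E2F sites stand mostly in S phase genes (7 of 16 windows).

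Other regulators of cycle entry and exit, among them retinoblastoma family members, subunits of the MuvB core, other E2F genes and the BTG genes, gave no call among 23 tested of 27 in edgeR. In this list 5 had an unadjusted p under 0.05, and DESeq2 called 2. *Btg2*, an antiproliferative gene, was at 246, 257 and 246 CPM in WT and 306 and 329 CPM in DKO (edgeR adjusted p = 0.0302). *Ccng2*, encoding cyclin G2 of quiescent cells, was at 199, 187 and 211 CPM in WT and 137 and 158 CPM in DKO (adjusted p = 0.0294). In each gene the DKO libraries lay on one side of WT.

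A list of 11 p53 pathway genes, which holds genes that like *Cdkn1a* are known targets of p53, had 2 genes that passed in edgeR, both higher, and 3 that passed in DESeq2. Among all genes tested 2.42% were called higher in edgeR, and 6.78% were called in DESeq2. *Phlda3*, an inhibitor of AKT signalling, was at 2.36, 3.50 and 3.35 CPM in WT and 9.82 and 9.57 CPM in DKO. The log2 fold change was 1.66 ± 0.23 (SE, adjusted p = 0.00238). *Pmaip1*, encoding the pro-apoptotic NOXA, was at 1.93, 1.69 and 1.46 CPM in WT and 6.53 and 13.5 CPM in DKO. Its log2 fold change was 2.54 ± 0.36 (SE, adjusted p = 0.00277). Leaving out any 1 of the WT libraries ended both calls in edgeR, with adjusted p up to 0.022 for *Phlda3* and 0.0343 for *Pmaip1*. The remaining 9 did not pass in edgeR. Of the 11 genes 9 had a positive log2 fold change, and 7 (63.6%) were above all WT libraries in both DKO libraries, as were 19.6% of all genes tested. *Mdm2*, an established p53 target named after its values were seen, was at 71.5, 73.5 and 69.6 CPM in WT and 69.7 and 73.9 CPM in DKO, and its groups overlapped. *Sesn1*, also a p53 target and chosen in the same way, was at 127, 126 and 122 CPM in WT and 76.4 and 93.1 CPM in DKO. It was lower in DESeq2 (adjusted p = 7.24e-05) and did not pass in edgeR (adjusted p = 0.0116, and 7.24e-05 to 0.067 over the alternatives). The median log2 fold change of the 11 genes was 0.28, and 0.01 for all genes tested.

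Markers of cell types and stages were measured beside these genes. Calls in these lists, here and below, are to be read against 2.42% of all genes tested called higher and 1.50% called lower in edgeR. *Rag1*, which defines rearranging thymocytes, had no read in any library. Reads on exon bases shared with another gene are not counted, and such sharing was not checked for *Rag1*. Of 8 tested early and double positive markers *Cd8b1* fell in both tools, with 66.9, 65.9 and 71.7 CPM in WT and 28.6 and 27.1 CPM in DKO (adjusted p = 1.68e-04). Of these 8 markers 6 had a negative log2 fold change (median -0.74). In 5 of the 8 both DKO libraries were below all WT libraries, as in 19.5% of all genes tested. The summed level of the 12 markers was 238 to 249 CPM in WT, 292 CPM in DKO replicate 1 and 230 CPM in DKO replicate 2, of which *Themis* (named after its values were seen) made up the larger part in DKO. *Themis* was at 104, 107 and 93.2 CPM in WT and 224 and 134 CPM in DKO, higher in DESeq2 (adjusted p = 3.68e-04) and not past the threshold in edgeR (0.0229, and 3.34e-06 to 0.123 over the alternatives). Without *Themis* the sum was 134 to 156 CPM in WT and 67.3 and 96.0 CPM in DKO. Most of that gap between the DKO libraries lay in *Il2ra*, encoding CD25, at 34.2, 33.7 and 37.4 CPM in WT and 11.4 and 38.3 CPM in DKO, below WT in replicate 1 and above it in replicate 2. *Cd8a*, encoding the other chain of CD8, was above WT in both DKO libraries (2.71, 2.91 and 5.39 CPM in WT, 5.77 and 8.67 CPM in DKO, log2 fold change 0.94, adjusted p = 0.128). Both are named after their values were seen. All 8 CD4 SP T cell markers were detected. *Cd4* (635, 752 and 572 CPM in WT, 389 and 433 CPM in DKO, adjusted p = 0.0095) and *Cd5*, a negative regulator of TCR signalling (895, 941 and 886 CPM in WT, 404 and 344 CPM in DKO, adjusted p = 8.57e-05), fell. The call on *Cd4* was lost without any 1 of the WT libraries (adjusted p up to 0.0419), and so were those on *Klrb1c*, *Izumo1r* and, without WT replicate 2 or 3, *Foxp3* in the lists that follow, with adjusted p up to 0.0497, 0.0134 and 0.0208. DESeq2 added *Il7r* (lower) here, *Tbx21* (higher) among the innate-like markers and *Tnfrsf18* (lower) among the regulatory T cell markers.

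Higher in DKO libraries were most innate-like T cell markers and, among gamma-delta T cell markers, only the *Tcrg-C* constant region genes. Of 6 iNKT and innate-like markers 4 rose. The largest change was in *Eomes*, a T-box factor (1.78, 2.06 and 2.62 CPM in WT, 81.2 and 92.8 CPM in DKO, adjusted p = 1.02e-06), followed by *Zbtb16*, encoding PLZF (log2 fold change 3.85), *Klrb1c*, encoding NK1.1 (from 1.57 to 2.36 CPM in WT, 6.86 and 17.8 CPM in DKO), and *Slamf6*, a costimulatory receptor (log2 fold change 1.14). Their summed level was 460 to 485 CPM in WT and 837 and 1093 CPM in DKO, although the sort left out tetramer-positive iNKT cells. Of 5 tested gamma-delta T cell markers the constant region genes *Tcrg-C1*, *Tcrg-C2* and *Tcrg-C4* rose (log2 fold changes 4.40, 4.32 and 4.04), and the sum went from 28.5 to 30.6 CPM in WT to 235 and 376 CPM in DKO, in cells sorted for TCRβ. The other 2 did not rise, and both are named after their values were seen. *Sox13*, a transcription factor of gamma-delta cells, was at 1.08, 1.05 and 0.947 CPM in WT and 0.238 and 0.224 CPM in DKO, below WT in both (log2 fold change -2.12, adjusted p = 0.0361). *Trdc*, the constant gene of the delta chain, was at 11.7, 11.8 and 16.6 CPM in WT and 18.3 and 15.3 CPM in DKO, with overlapping groups. Of 6 tested regulatory T cell markers *Foxp3* fell (44.4, 58.1 and 54.3 CPM in WT, 17.9 and 24.3 CPM in DKO, adjusted p = 0.00191) and *Izumo1r*, encoding folate receptor 4, rose (304, 308 and 275 CPM in WT, 495 and 471 CPM in DKO, adjusted p = 0.00126). The summed level of the list was 656 to 690 CPM in WT and 759 and 772 CPM in DKO, and without *Izumo1r* it was 347 to 415 CPM in WT and 265. and 301. CPM in DKO. Of the 6 tested, 3 had a positive and 3 a negative log2 fold change, with a median of -0.20.

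None of the 4 myeloid, 2 B cell and 3 thymic epithelial markers tested passed in edgeR or DESeq2, with 3, 1 and 3 at an unadjusted p under 0.05, and none of 6 erythroid markers had enough reads to be tested. Summed myeloid markers were 8.75 to 16.6 CPM in WT, 26.6 CPM in DKO replicate 1 and 50.4 CPM in DKO replicate 2. Epithelial markers summed to 10.6 to 13.4 CPM in WT, 10.7 CPM in DKO replicate 1 and 34.1 CPM in DKO replicate 2. The last value rested on *Epcam* (named after its values were seen), at 33.8 CPM there, and without it the sum was 1.75 to 3.16 CPM in WT and 0.238 and 0.336 CPM in DKO. The other 2 epithelial markers tested were below WT in both DKO libraries, as were 19.5% of all genes tested. B cell markers summed to 5.72 to 7.03 CPM in WT and 9.11 and 9.40 CPM in DKO. Erythroid markers stayed at or below 0.524 CPM in sum in every library. DKO replicate 2, the library with the higher G2/M levels, thus also had the higher sums of myeloid and innate-like markers and of the *Tcrg-C* genes and more *Il2ra* and *Epcam* (but less *Trdc*, 15.3 against 18.3 CPM), and DKO replicate 1, with the lower G2/M levels, was the library with *Xist* reads and the higher share of reads outside annotated features. The part of these differences in the values of the cell cycle genes was not tested.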

How the data were processed

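RNA-seq counts of 5 libraries (3 WT, 2 *Tet2/3* DKO) were analysed. Per the labels and the methods, the authors made base calls with bcl2fastq 2.20.0, trimmed the reads with fastp 0.21.0, aligned them with STAR 2.7.5a (genome mm10, annotation GRCm38.100) and deposited raw counts per gene for each library, without normalization or pooling. Reads mapping to several places, or to more than one gene, are not in these counts. The unstranded column was used, because 49.8% to 50.2% of stranded reads fell on one strand. SMART-seq reads carry no molecular identifiers. GENCODE M21 held 55227 of the 55487 identifiers and supplied symbols, mm10 coordinates and exon lengths. Groups and replicate numbers came from the titles.

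Counts were tested with edgeR 4.0.16 in R 4.3.3 (quasi-likelihood test with the newer moderation, TMM scaling, filterByExpr with its minimum count of 10, Benjamini-Hochberg adjustment over 13525 genes), with genotype as the only term and a threshold of 0.01. SE was taken as the size of the log2 difference over the root of F. DESeq2 1.42.0, the tool of the study, was an alternative, beside RLE scaling, no filter, legacy and robust moderation, a threshold of 0.05, a replicate block and leaving out each library. Sums are of CPM, with no test. In counts simulated for this comparison over 13525 genes, edgeR called 59 of 100 genes with a true log2 difference of 1, 86 of 100 with one of 2, and 1 of the 13325 left unaltered.

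The genes and lists were chosen with earlier results of these data known. In each role the gene with the highest mean CPM and the one with the largest change were named, with every gene past the threshold in edgeR or DESeq2, a set of 14 standing names (*Mki67*, *Top2a*, *Cdk1*, *Ccnb1*, *Pcna*, *Mcm5*, the 4 CDK inhibitors, *Ccnd2*, *Ccnd3*, *Cdk6*, *E2f2*), genes of other lists past the threshold (at most 5 a list), and *Tet2*, *Tet3*, *Xist* and Y-linked genes. Clonotype tables were not used here. Sums of marker lists without *Themis*, *Izumo1r* or *Epcam*, and of other G2/M genes without *Smc4*, were added after seeing the data. Promoters were searched with Python 3.11.15, for motifs also chosen after seeing the data.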

Additional observations from a re-analysis of the deposited data

How the results depend on the processing

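The count of genes past the threshold was 530 in all and 3 of the 48. It stayed within 1.5 times of that with RLE scaling, no filter, legacy moderation, robust moderation and the replicate block, which gave 528, 560, 529, 579 and 358 genes in all and 3, 4, 3, 4 and 3 of the 48. DESeq2 gave 1025 and 5, and a threshold of 0.05 gave 1173 and 4. Leaving out 1 library gave 110 to 1311 genes in all and 0 to 22 of the 48. With 2 DKO libraries, each of these fits without a DKO library assumes that the lone one varies as WT libraries do. The replicate numbers only name the mice: deviations of same-numbered WT and DKO libraries correlated at 0.015 and 0.0045 in the 2 pairs. RLE scaling moved the median of all genes by 0.0017 on the log2 scale.

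The log2 ratio of summed levels was -0.05 for the S phase genes and -0.21 for the G2/M genes, and leaving out 1 library gave -0.31 to 0.17 and -0.69 to 0.16, negative without DKO replicate 2 and positive without DKO replicate 1. Over the 12 alternatives 499 values of the 48 log2 fold changes kept direction and side of the threshold, 29 newly passed it with the same sign, 8 no longer did and 40 changed sign, 1 of which (*Plk1* without DKO replicate 2) also newly passed. The sign changed in 31 genes, 22 times without DKO replicate 1, 9 times without DKO replicate 2, 4 times without WT replicate 2 and once without WT replicate 3. No filter turned *Plk1* (-0.0017) and 1 other gene, and the replicate block turned *Cdkn2c* (-0.016) and *Plk1* (-0.13). *E2f2*, *Ccnd3*, *Cdkn1a*, *Stmn1* and *Top2a* were among the 17 genes with the same sign throughout. Of the genes named, leaving out 1 library turned the sign of 14, and their log2 fold changes then ranged from -0.28 to 0.15 (*Mcm5*), from -0.73 to 0.51 (*Plk1*), from -0.23 to 0.062 (*E2f1*), from -0.73 to 0.059 (*Rrm2*), from -0.59 to 0.24 (*Ccnb2*), from -0.79 to 0.32 (*Cdk1*), from -0.83 to 0.055 (*Kif20a*), from -0.71 to 0.32 (*Ube2c*), from -0.47 to 0.053 (*Mki67*), from -0.39 to 0.028 (*Ccnd2*), from -0.17 to 0.51 (*Cdk6*), from -0.63 to 0.56 (*Cdkn2c*), from -0.18 to 0.59 (*Mcm6*) and from -0.56 to 0.91 (*Ccnb1*).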

Other observations

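The 2 INK4 genes outside the 48 were almost silent in WT cells. *Cdkn2b*, encoding p15, had 4, 1 and 4 reads in WT libraries, 3 in DKO replicate 1 and 33 in DKO replicate 2. *Cdkn2a*, encoding p16 and p19ARF, had 0, 1 and 0 reads in WT libraries, 1 in DKO replicate 1 and 13 in DKO replicate 2. Neither gene passed the filter on low counts with all 5 libraries, and both were picked out after their values were seen. With DKO replicate 2 alone against WT, *Cdkn2b* passed the filter and was called higher by edgeR (log2 fold change 3.92, adjusted p = 4.52e-04, and up to 0.133 over the alternatives that tested it), a comparison of those libraries only. For *Cdkn2a* the only adjusted p among the alternatives was 0.166. *Fen1*, the flap endonuclease of DNA replication, had 8 to 15 reads in every library, and was chosen in the same way. Whether it shares exon bases with another gene was not checked, and reads on such bases are not counted.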
